A study of Mus musculus with 19 samples.

Results

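The 8 ephrin ligand genes of the mouse, Efna1 to Efna5 and Efnb1 to Efnb3, were followed through the RNA of MII oocytes (mature oocytes arrested in metaphase of the second meiotic division) and 2cell embryos. They are 8 of the 25891 genes listed, and all 8 were found by their symbol. Efna1 was chosen by its lower FPKM in CPEB3-/- than in CPEB3+/- MII oocytes of these same libraries, so that difference is given as a description with no test. The other 7 genes were taken because they belong to the same family.

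The 19 libraries are labelled as CPEB3 HET (here CPEB3+/-, 5 MII and 5 2cell libraries) and CPEB3 KO (here CPEB3-/-, 5 MII and 4 2cell libraries). The methods describe a knockout restricted to the oocyte, in which Cre is driven by the Zp3 promoter. For CPEB3-/- they give the Cre with both Cpeb3 alleles floxed. For the control they give the Cre with 1 floxed allele, or an unmodified Cpeb3, and count either as wild type. They do not say which of these the libraries labelled HET were. Donors were BL6 females 6 to 10 weeks old, stimulated with 5 IU of PMSG and then, 48 h later, 5 IU of hCG. For embryos the females were mated, zygotes were collected 17 h after hCG, and 2cell embryos were taken after culture at 37 h. A CPEB3-/- 2cell embryo is therefore an embryo of a CPEB3-/- mother, and by the study's account the females of its embryo experiments were mated with wild-type males, although the labels of these libraries do not give the genotype of the males. According to the methods each library held 5 cells, in quadruplicate per group, although the labels list 5 libraries in 3 of the groups. The sources do not say whether the libraries of a group came from separate females, so p values measure the spread between libraries, which may be technical.

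Ephrins are membrane-bound ligands of the Eph receptor tyrosine kinases. The A class is held in the membrane by a glycosylphosphatidylinositol (GPI) anchor, and the B class crosses the membrane and has a cytoplasmic tail. Ligand and receptor meet where cells touch, both sides can signal, and the outcome is often adhesion or repulsion of the cells. CPEB3 is an RNA-binding protein of the cytoplasmic polyadenylation family, whose members bind U-rich elements of the 3′UTR and control the poly(A) tail and translation of stored maternal mRNAs.

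Because of that family's preference, the 3′UTRs of the ligands were searched on the sense strand, in the DNA letters of the transcript, for U-rich motifs (the hexamer TTTTAT, the longer forms TTTTAAAT or TTTTAAGT, the form TTTTACT or the form TTTTCAT) and for the A-rich hexamer AATAAA or its variant ATTAAA. The windows that follow hold the U-rich motif closest to the 3′ end in each of the 5 ligands with a mean of at least 0.2 FPKM in any group. Each is shown 5′ to 3′, with the motifs in capitals, from the longest annotated 3′UTR (GENCODE vM21 transcripts, build GRCm38).
Efna1, chr3:89271733-89271762, minus strand: tcatAATAAAttgatggttTTTTATggaca
Efna4, chr3:89333773-89333802, minus strand: ctggtttgtattTTTTATaaagtgtttgga
Efna2, chr10:80189971-80190000, plus strand: aagtctgtatttTTTTATAATAAAatggac
Efnb2, chr8:8617575-8617604, minus strand: attttttctttgTTTTATtttaatagcctg
Efnb3, chr11:69554149-69554178, minus strand: tcacctcgatagTTTTATtgtaaaagggaa

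In Efna1 this motif was the last of 2 and ended 5 bases before the annotated end, downstream of the only A-rich motif of its 759-base 3′UTR. In Efna2 the single U-rich motif of 1220 bases ran directly into an A-rich motif and ended 22 bases before the end. Efna4 had 1 U-rich motif in 900 bases, 395 bases before the end. The last of 6 in Efnb2 lay 153 bases, and the last of 2 in Efnb3 69 bases, before the end. Efna5 held 7 and Efnb1 held 3 U-rich motifs, and Efna3 held none. A-rich motifs numbered 1 to 6 in 7 ligands, and Efnb1 had 0. In Efnb2 and Efna5 motifs of both kinds lay close together, in Efnb2 with shared bases. Such motifs are common. Of 2202 annotated 3′UTRs as long as that of Efna1 (the shorter at least 80% of the longer), 60.7% held a U-rich and 91.0% an A-rich motif, and of 2425 as long as that of Efna4, 65.2% held a U-rich one. A match describes letters only and was not tested for binding.

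**Figure D1:**
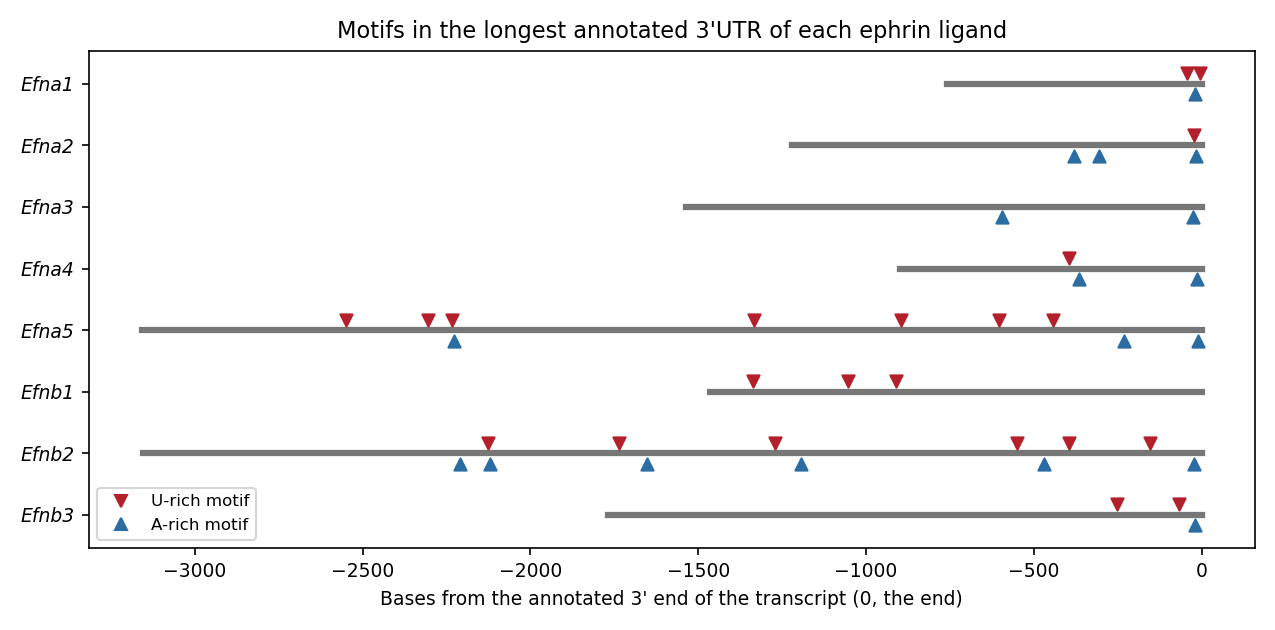
Motifs in the longest annotated 3′UTR of each ephrin ligand, aligned at the annotated 3′ end (x axis, bases from the end). Red triangles above a line are U-rich and blue triangles below it A-rich motifs. Efna1 and Efna2 have a U-rich motif within 22 bases of the end, Efna3 has none and Efna5 has 7.

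The values are FPKM, fragments per kilobase of exon and per mega-fragment, so levels of different genes can be set side by side. Low values fell near steps of 1 fragment more often than by chance (43.6% against 10%). From these steps a depth of 17.3 to 23.6 M (mega) fragments per library was estimated. Fewer cells and less RNA per cell cannot be told apart in such pooled libraries. Cpeb3 itself did not fall in the libraries labelled CPEB3-/-. It ranged from 0.045 to 0.101 FPKM in CPEB3+/- and from 0.131 to 0.215 in CPEB3-/- MII libraries, and the values of a whole gene do not single out a deleted exon. All 9 oocyte markers were above 1 FPKM on average in MII libraries, and the summed level of 8 markers of the 2cell embryo was 311 to 561 FPKM in 2cell against 6.1 to 27.2 in MII libraries. Within MII this last sum was 6.1 to 10.5 in CPEB3+/- and 14.8 to 27.2 in CPEB3-/- libraries. Most of that difference lay in Zscan4c (means of 0.544 and 3.37 FPKM) and Zscan4d (1.15 and 9.88), while Zfp352 (0.071 and 0.0613) and Tcstv3 (5.85 and 6.64) were close, and its part in the results below was not tested.

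Efna1 was the most abundant ephrin of the CPEB3+/- MII oocyte. Efna1 encodes ephrin-A1, a GPI-anchored ligand best known from blood vessels and epithelia. It lies on chromosome 3 (GRCm38, 89271733 to 89281142, minus strand). The 5 CPEB3+/- MII libraries A to E held 4.90, 3.91, 5.84, 3.41 and 3.33 FPKM, a mean of 4.28 ± 1.08 (SD, n = 5). The 5 CPEB3-/- MII libraries held 0.232, 0.496, 0.872, 0.859 and 0.687 FPKM, a mean of 0.629 ± 0.27 (SD, n = 5). Every CPEB3-/- value lay below every CPEB3+/- value. The CPEB3-/- mean was 0.147 times the CPEB3+/- mean, and the fitted difference was -2.73 on the scale of log2(FPKM + 0.1), between -2.87 and -2.46 when any 1 library was left out. These values rest on an estimated 119 or more fragments in each CPEB3+/- library (median 150) and 9.67 to 33.8 fragments in each CPEB3-/- library. No p value is given, because this contrast chose the gene.

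**Figure D2:**
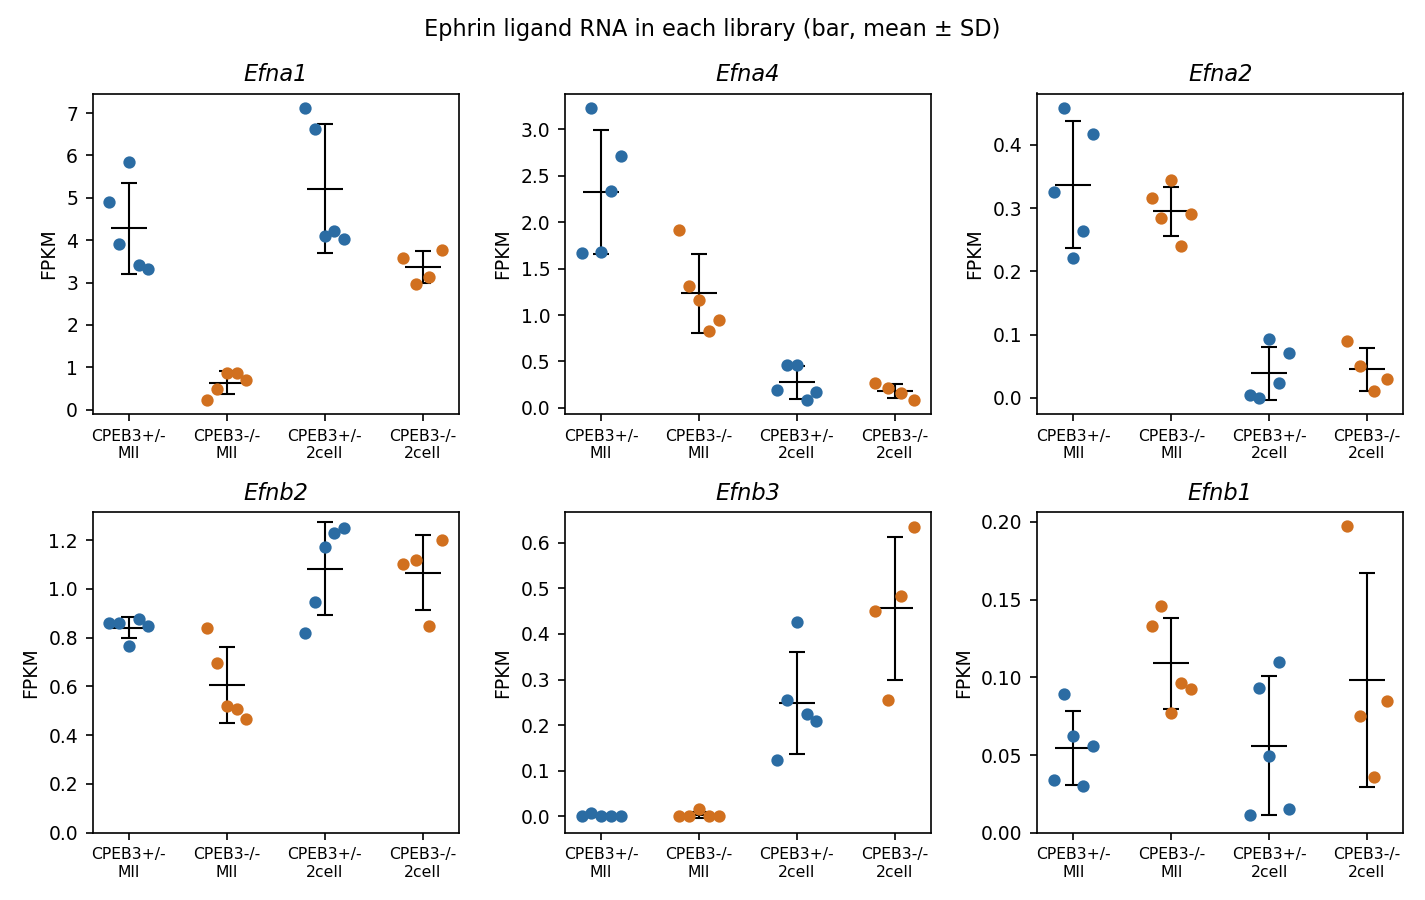
FPKM (y axis, a separate scale for each gene) of 6 ephrin ligands in each of the 19 libraries, by genotype and stage, with the mean ± SD of each group in black. For Efna1 the CPEB3-/- MII libraries sit between 0.232 and 0.872 FPKM and all other libraries at 2.97 or above.

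Efna4 was the second ephrin of the CPEB3+/- MII oocyte and fell in CPEB3-/- MII oocytes, where its mean nevertheless exceeded that of Efna1. It encodes ephrin-A4, also GPI-anchored, and lies in the same chromosome 3 cluster (89333390 to 89338028, minus strand). In CPEB3+/- MII libraries A to E it stood at 1.67, 3.23, 1.68, 2.34 and 2.71 FPKM (mean 2.32 ± 0.676, SD, n = 5). In CPEB3-/- MII libraries A to E it stood at 1.92, 1.31, 1.16, 0.832 and 0.946 FPKM (mean 1.23 ± 0.425, SD, n = 5). Only library A of the CPEB3-/- group reached into the CPEB3+/- range. The log2 fold change was -0.96 (95% interval -1.42 to -0.50, adjusted p = 0.0111, limma with Benjamini-Hochberg adjustment over 10515 genes), about 0.53 times the CPEB3+/- level. Genes past an adjusted p of 0.05 and a 1.5-fold change are called here, and Efna4 was called in each of the 10 fits that left out 1 library, with an adjusted p of at most 0.0277.

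Of the 8 ligands, 4 passed the filter on low values in MII oocytes (at least 0.1 FPKM in 5 libraries), namely Efna1, Efna2, Efna4 and Efnb2. Among the 3 whose MII difference had not been used to choose them, 1 was called lower and 0 higher. Over all genes tested in MII oocytes 12.9% were called, 7.17% lower and 5.73% higher in CPEB3-/-. The groups did not overlap for 16.3% of tested genes, and for Efna1 alone among these 4 ligands. Of all calls in MII oocytes 44.4% were higher in CPEB3-/-, a share that was 57.1% with the values as deposited and 69.9% when libraries were scaled to their summed FPKM. That scaling moved the median of all genes from 0.02 to 0.15 in MII oocytes and from 0.03 to 0.26 in 2cell embryos.

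Efnb2, the transmembrane ligand ephrin-B2 known from arteries and neural crest, was near 0.8 FPKM in every CPEB3+/- MII library, with 0.858, 0.860, 0.765, 0.877 and 0.847 FPKM in A to E. In CPEB3-/- MII libraries A to E it was 0.839, 0.695, 0.521, 0.509 and 0.468 FPKM. The groups overlapped only through library A, as for Efna4, while that same library had the lowest Efna1 value of all. The log2 fold change of Efnb2 was -0.52 (95% interval -0.81 to -0.22, adjusted p = 0.0221 in limma), less than 1.5-fold, so it was not called. Without CPEB3-/- library A it was -0.61 (adjusted p = 0.00815), which passed both thresholds, and the same held with the GC trend of each library removed (-0.59, adjusted p = 0.00872). Over the settings other than leaving out a library its adjusted p ran from 0.00872 to 0.0822.

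Efna2, the GPI-anchored ephrin-A2 of the retina and midbrain, was low in MII oocytes. It ranged from 0.221 to 0.458 FPKM in CPEB3+/- and from 0.240 to 0.344 in CPEB3-/- libraries, which lay inside the CPEB3+/- range. The log2 fold change was -0.19, with a 95% interval of -0.51 to 0.13 (adjusted p = 0.373 in limma). On this scale the fitted change of Efna4 (-0.96) lay outside that interval. The pseudocount of 0.1 shrinks the changes of a gene as low as Efna2 more than those of Efna4, so the sizes are not fully alike. With the GC trend of each library removed the difference was -0.43 (adjusted p = 0.0268), still under 1.5-fold.

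The remaining ligands were close to the limit of detection in MII oocytes. Efna5 lay between 0.0706 and 0.116 FPKM over both genotypes. Efna3 reached at most 0.0622 FPKM and was at 0 in 5 of 10 libraries, and an antisense gene, Gm15998, overlaps it by 3469 bases, which counting without strand cannot separate. Efnb3, the ephrin-B3 of the nervous system midline, was at 0 in 8 of 10 MII libraries and at most 0.0154 FPKM, under the 0.0399 FPKM or more that 3 fragments would give. Efnb1, the X-linked ephrin-B1 mutated in craniofrontonasal syndrome, was at 0.0301 to 0.0892 FPKM in CPEB3+/- and 0.0768 to 0.146 in CPEB3-/- libraries. Its genotypes differed at p = 0.0159 in a two-sided exact permutation test, but not after adjustment over the 8 such tests of low ligands (adjusted p = 0.127). For Efna3, Efna5 and Efnb3 in MII oocytes the same exact permutation test gave 0.167, 0.357 and 1.

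In 2cell embryos Efna1 was again the leading ephrin, in both genotypes. The CPEB3+/- 2cell libraries A to E held 7.12, 6.62, 4.10, 4.21 and 4.03 FPKM (mean 5.22 ± 1.52, SD, n = 5), and the CPEB3-/- libraries A to D held 3.57, 2.97, 3.12 and 3.77 FPKM (mean 3.36 ± 0.377, SD, n = 4). The genotypes did not overlap, which was also true of 20.0% of the genes tested in 2cell embryos, and libraries A and B lifted the CPEB3+/- mean. The log2 fold change was -0.58 (95% interval -1.08 to -0.08), and its adjusted p of 0.0984 (limma, 14051 genes) missed the threshold. With the GC trend of each library removed it was -0.80 and was called (adjusted p = 0.0433), while scaled to summed FPKM it was -0.29 (adjusted p = 0.33). Over the 9 fits that left out 1 library the adjusted p ran from 0.0718 to 0.194. The sum of all FPKM values, which can move with short or abundant genes, was 135309 to 159320 in CPEB3+/- and 113886 to 123318 in CPEB3-/- 2cell libraries, and its part in this result was not tested beyond that scaling.

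The other tested ligands did not pass the threshold between genotypes in 2cell embryos. Efnb2 was 0.818, 0.948, 1.17, 1.23 and 1.25 FPKM in CPEB3+/- and 1.10, 1.12, 0.848 and 1.20 in CPEB3-/- embryos (log2 fold change -0.01, 95% interval -0.37 to 0.35, adjusted p = 0.976 in limma). Efna4 was down to 0.0874 to 0.462 FPKM and 0.0893 to 0.262 FPKM (-0.32, 95% interval -1.12 to 0.48, adjusted p = 0.569). That interval includes the size seen for Efna4 in MII oocytes as well as no difference.

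For Efnb3 the CPEB3-/- mean was the higher one, without passing the threshold. Its CPEB3+/- 2cell libraries held 0.124, 0.256, 0.427, 0.224 and 0.210 FPKM, and its CPEB3-/- libraries 0.449, 0.256, 0.483 and 0.635 FPKM. All but library B of the CPEB3-/- embryos exceeded the CPEB3+/- range. The log2 fold change was 0.69 (95% interval 0.07 to 1.30, adjusted p = 0.109 in limma). It was called when libraries were scaled to summed FPKM (0.90, adjusted p = 0.0472) and in the fit of all 19 libraries (0.70, adjusted p = 0.0194), whereas with the GC trend of each library removed it was 0.35 (adjusted p = 0.355). Of the 4 ligands that passed the filter in 2cell embryos (Efna1, Efna4, Efnb2 and Efnb3) 0 were called, where 18.0% of all tested genes were, 8.56% lower and 9.47% higher in CPEB3-/-. At an unadjusted p under 0.05 in the same limma fit there were 2, Efna1 and Efnb3, with p values of 0.0276 and 0.0319, as were 34.3% of all genes tested there. Efna2, Efna3, Efna5 and Efnb1, each below 0.2 FPKM, gave exact permutation p values of 0.786, 0.103, 0.127 and 0.317.

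**Figure D3:**
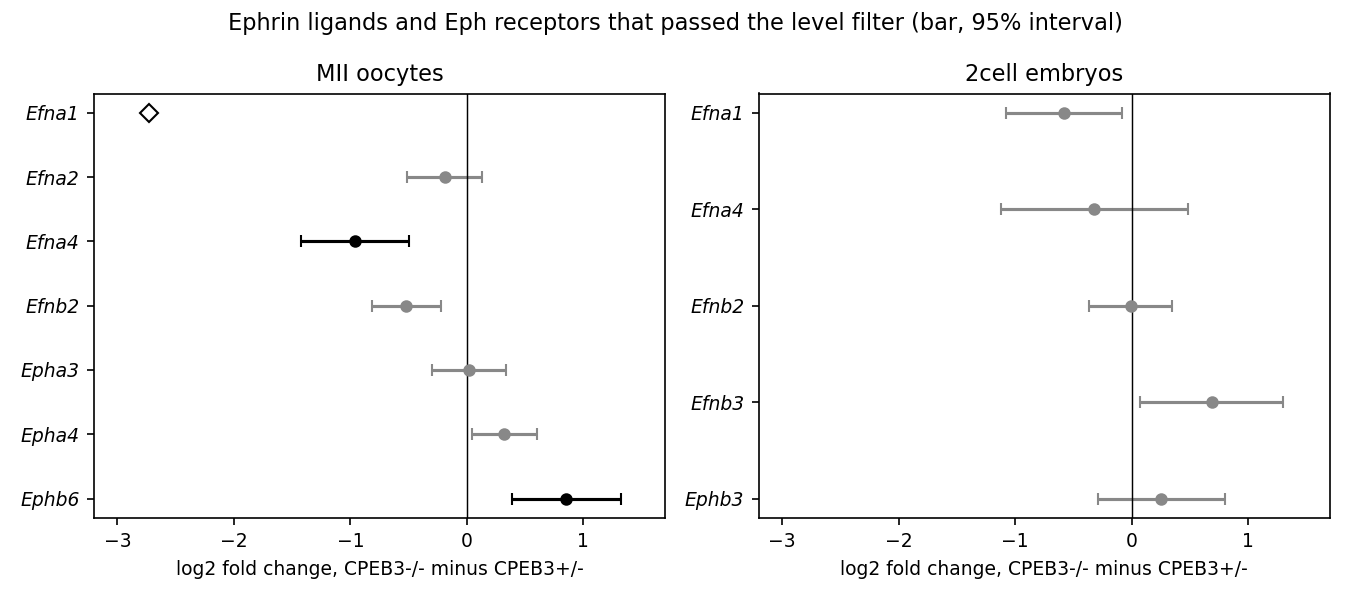
Log2 fold change of CPEB3-/- minus CPEB3+/- on the scale of log2(FPKM + 0.1) for the ephrin ligands and Eph receptors that passed the filter, in MII oocytes (left) and 2cell embryos (right), with 95% intervals. Black points are called, grey points are not, and the open diamond is Efna1 in MII oocytes (-2.73), shown without an interval because this contrast chose it.

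Stage was compared next. From MII oocytes to 2cell embryos the median of all tested genes moved by 0.45 in CPEB3+/- and 0.46 in CPEB3-/-, so the fold changes that follow are given with the value relative to that median. Scaled to summed FPKM, the medians were -0.17 and -0.07.

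Efna4 fell between the stages in both genotypes. It dropped from a mean of 2.32 to 0.274 FPKM in CPEB3+/- (log2 fold change -2.68, -3.13 relative to the median, adjusted p = 1.30e-07 in limma) and from 1.23 to 0.181 FPKM in CPEB3-/- (-2.07, or -2.53, adjusted p = 7.76e-06). Efna2 had means of 0.337 FPKM in MII oocytes and 0.0387 in 2cell embryos of CPEB3+/-, and of 0.295 and 0.0455 FPKM in CPEB3-/-. For both genes and both genotypes the stages did not overlap. The share of all genes without such overlap was not computed, so the non-overlap is a description. Efna2 reached the filter of 0.1 FPKM in all 10 MII and in 0 of the 9 2cell libraries. It thus entered the fit of 19 libraries, which asks for 4, only through the stage where it is high, and its calls there are no support for a fall. They also depend on the pseudocount: with 1 in place of 0.1 the log2 changes went from -1.62 and -1.35 to -0.34 and -0.28, under 1.5-fold, and 3 of 5 CPEB3+/- and 3 of 4 CPEB3-/- 2cell libraries held fewer than 3 fragments. Efna5, which also reached the filter in MII libraries alone (4 of 10), differed by less than 1.5-fold on this scale (-0.45 and -0.38).

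Efnb3 was at or near 0 in MII oocytes and reached a mean of 0.248 ± 0.111 FPKM in the 5 CPEB3+/- and of 0.456 ± 0.156 FPKM in the 4 CPEB3-/- 2cell libraries (SD). It reached the filter in all 9 of these and in 0 of 10 MII libraries, so it was tested only through the stage where it is high, and its calls add nothing to these values. The fitted log2 changes of 1.79 and 2.47 depend on the pseudocount of 0.1, since MII values were below the floor of 3 fragments, and were 0.33 and 0.56, under 1.5-fold, with a pseudocount of 1.

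Efnb2 was called higher in 2cell embryos than in MII oocytes in CPEB3-/- (0.93, or 0.46 relative to the median, adjusted p = 3.77e-05) but not in CPEB3+/- (0.44, or -0.01, adjusted p = 0.0125, under 1.5-fold). Scaled to summed FPKM the CPEB3-/- call was lost (0.24, adjusted p = 0.189), as with a pseudocount of 1 (0.46, under 1.5-fold), and the CPEB3+/- sign turned (-0.39). Efnb2 shares its locus with E230020D15Rik, Gm45073 and Gm45074, 3 tentative gene models on the same strand, which were at or near 0 in MII oocytes and reached 0.646, 0.817 and 1.59 FPKM in single 2cell libraries. Their part in the Efnb2 values was not tested. Efnb1 (0.03 and -0.02) showed no change past the threshold, and Efna3 was too low to be tested.

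For Efna1 the stage change used the MII libraries that chose it and is described only. CPEB3+/- embryos had 1.22 times the mean of CPEB3+/- oocytes, with overlapping values and a fitted difference that turned from 0.40 to -0.50 when libraries were scaled to summed FPKM, and CPEB3-/- embryos had 5.34 times the mean of CPEB3-/- oocytes, without overlap. In order of mean FPKM as deposited the groups ran from CPEB3+/- 2cell (5.22) through CPEB3+/- MII (4.28) and CPEB3-/- 2cell (3.36) to CPEB3-/- MII (0.629). Each of the upper 3 groups overlapped its neighbour in that order, and CPEB3-/- MII overlapped none. The share of all genes without overlap between the stages was not computed.

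Between 2cell and MII, 1 ligand (Efnb3) was called higher in CPEB3+/-, where 43.4% of all genes were, and 2 (Efna2 and Efna4) lower, where 22.0% were. In CPEB3-/-, leaving Efna1 aside, 2 were called higher (Efnb2 and Efnb3) against 43.6% of all genes and 2 lower (Efna2 and Efna4) against 21.3%. With Efnb3 and Efna2 tested only through the stage where they are high, these counts are a description. Whether the stage change differed between the genotypes was tested as an interaction for the 6 other ligands in the fit of 19 libraries, and 0 were called, where 7.90% of all genes were. The closest were Efnb3 (0.68, adjusted p = 0.163) and Efnb2 (0.49, adjusted p = 0.18), both also at an unadjusted p under 0.05, as were 23.4% of all genes in that fit. For Efna4 the interaction was 0.61 with a 95% interval of -0.27 to 1.49.

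The balance of the ligands shifted with these changes. Summed over all 8, ephrin RNA was 7.93 ± 0.732 FPKM in CPEB3+/- MII, 3.0 ± 0.413 in CPEB3-/- MII, 6.98 ± 1.32 in CPEB3+/- 2cell and 5.34 ± 0.677 in CPEB3-/- 2cell libraries (SD, n = 5, 5, 5 and 4). These sums contain Efna1 and are a description. Efna1 made up 53.7 ± 10.6% of the sum in CPEB3+/- and 22.0 ± 10.6% in CPEB3-/- MII oocytes (SD, n = 5 each), and Efna4 made up 29.5 ± 8.56% and 40.3 ± 8.34%. Efna1 exceeded Efna4 in 5 of 5 CPEB3+/- but 1 of 5 CPEB3-/- MII libraries. In 2cell embryos Efna1 held 73.8% and 63.0% of the sum, and Efnb2 ranked second in every 2cell library of both genotypes. Efna4 was then 3.88% and 3.45% of the sum.

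**Figure D4:**
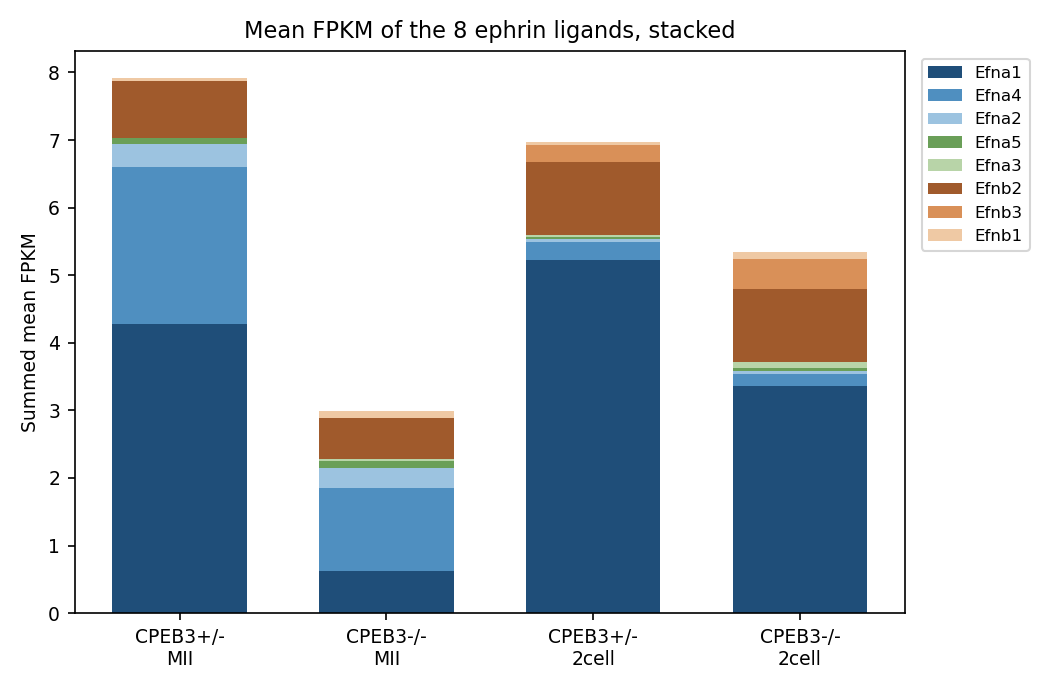
Mean FPKM of the 8 ephrin ligands, stacked, for each genotype and stage (y axis, summed mean FPKM; no error is drawn). Efna1 (darkest blue) is 4.28, 0.629, 5.22 and 3.36 FPKM from left to right, Efna4 is visible mainly in MII oocytes and Efnb3 only in 2cell embryos.

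Efna1, Efna3 and Efna4 are neighbours on chromosome 3, and the genes around them were examined for like behaviour. Within 100 kb of Efna1 lie 20 other genes, 5 of which passed the filter in MII oocytes. Efna4, 52.2 kb away, was the only one called, where 12.9% of all genes were. Clk2, a splicing kinase 94.8 kb away, was at 2.49 FPKM in CPEB3+/- and 2.31 in CPEB3-/- MII oocytes (log2 fold change -0.19, adjusted p = 0.328 in limma), and Scamp3, a membrane trafficking gene, at 0.936 and 0.984 (-0.03, adjusted p = 0.949). Slc50a1 and Dpm3, the nearest genes at 1.16 and 4.65 kb, were below 0.2 FPKM in every MII library and were not tested. In 2cell embryos Krtcap2, a subunit of the oligosaccharyltransferase, was at 0.814 FPKM in CPEB3+/- and 1.03 in CPEB3-/- (0.25, adjusted p = 0.627 in limma). Muc1, a transmembrane mucin, was at 0.582 and 0.113 FPKM there, with a range of 0.0402 to 1.37 within CPEB3+/- (-1.38, 95% interval -2.96 to 0.20, adjusted p = 0.198 in limma). Of the 20 genes, 11 were tested in 2cell embryos and 1 was called, where 18.0% of all genes were. This was Scamp3, higher in CPEB3-/- (1.20 to 1.89 FPKM, 0.62, adjusted p = 0.0208). That call was lost without CPEB3+/- library A (0.54, under 1.5-fold) and without CPEB3-/- library A or D (adjusted p = 0.0592 and 0.0512).

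**Figure D5:**
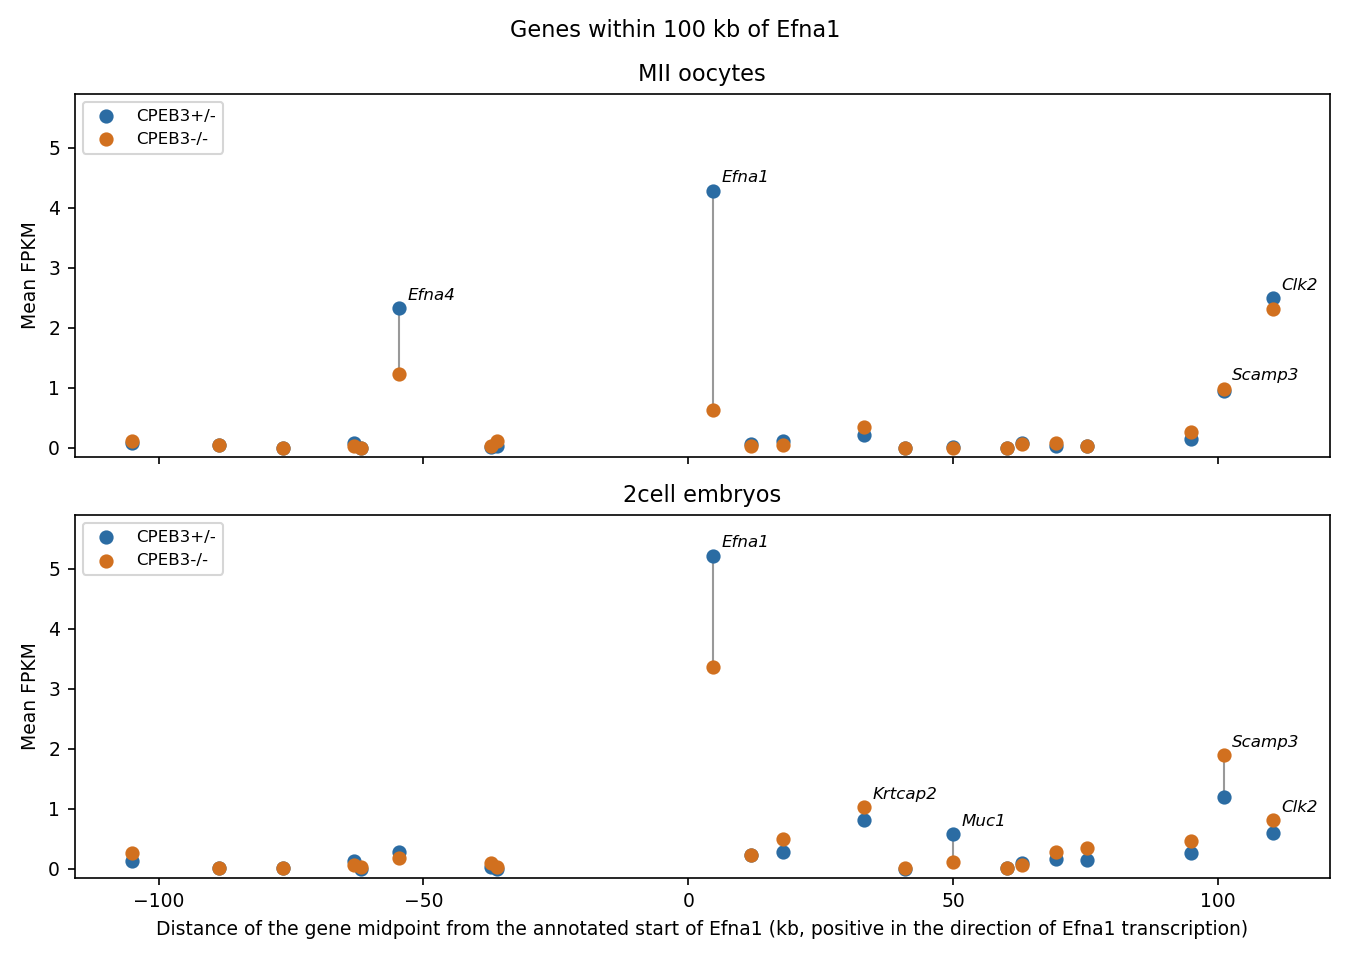
Mean FPKM (y axis) of Efna1 and the 20 other genes within 100 kb, by the distance of the gene midpoint from the annotated start of Efna1 (x axis, kb), in MII oocytes (top) and 2cell embryos (bottom). Grey lines join the 2 genotypes of a gene, and genes with a mean of at least 0.5 FPKM are named. In MII oocytes only Efna1 and Efna4 show a long line.

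RNA of the Eph receptors, the partners of these ligands, was scarce. Of 14 receptor genes searched 13 were listed, and Epha4, a receptor for ligands of both classes, was the only one to reach 0.5 FPKM in any group. Epha4 was 0.421 ± 0.0563 FPKM in CPEB3+/- and 0.585 ± 0.0927 in CPEB3-/- MII oocytes (SD, n = 5 each), a difference that did not pass (0.32, adjusted p = 0.0942 in limma), and it was at 0.0724 and 0.110 FPKM in 2cell embryos. The fitted stage changes of -1.51 and -1.55 were -0.38 and -0.46, under 1.5-fold, with a pseudocount of 1, and 0 of 5 CPEB3+/- 2cell libraries reached the filter. Of the 3 receptors tested in MII oocytes, 1 was called, where 12.9% of all genes were called and 16.3% did not overlap. This was Ephb6, whose kinase domain is inactive, with 0.0309 to 0.108 FPKM in CPEB3+/- and 0.111 to 0.325 in CPEB3-/- MII libraries (0.85, 95% interval 0.39 to 1.32, adjusted p = 0.0187). It reached the filter in 1 CPEB3+/- and all 5 CPEB3-/- libraries, so it was tested only through the genotype where it is high and its call is no support for a difference. With a pseudocount of 1 the log2 difference was 0.18. Ephb3 was the only receptor tested between genotypes in 2cell embryos (0.25, adjusted p = 0.5). It was at 0 in 9 of 10 MII libraries and averaged 0.101 and 0.136 FPKM in CPEB3+/- and CPEB3-/- 2cell embryos.

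Genes that act downstream of Eph and ephrin signalling were counted beside all tested genes, of which 12.9% were called in MII oocytes and 18.0% in 2cell embryos. Of 42 listed regulators 41 were found and 26 tested in MII oocytes, with 1 higher, 0 lower and a median log2 fold change of 0.06 against 0.02 for all genes. The 1 was Abl2, a cytoskeletal tyrosine kinase, at 2.21 FPKM in CPEB3+/- and 3.64 in CPEB3-/- oocytes (0.63, adjusted p = 0.0306). Its call was lost without CPEB3+/- library A, C or D or CPEB3-/- library A, B or C, with adjusted p values of 0.0569 to 0.0748. In 2cell embryos 2 of 22 were called, both higher, Abl2 again (2.47 to 4.13 FPKM, 0.74, adjusted p = 0.0111) and Pard6a, a polarity protein (0.735 to 1.64 FPKM, 1.02, adjusted p = 0.0165). The list median there was -0.12 against 0.03 for all genes. Adam10, the protease that sheds ephrins, was 0.641 FPKM in CPEB3+/- and 0.564 in CPEB3-/- MII oocytes and was not called.

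The GPI anchor that holds the A-class ligands is built by the Pig genes. Of 27 listed genes 26 were found and 15 tested in MII oocytes, with 0 higher, 1 lower and a median of -0.23 against 0.02, where 12.9% of all genes were called. Pigu, a subunit of the transamidase that attaches the anchor, went from 0.314 to 0.165 FPKM in CPEB3-/- oocytes (-0.71, adjusted p = 0.0056). In 2cell embryos 16 were tested and 3 called (median -0.01 against 0.03), close to the 18.0% of all genes. Pigh, a subunit of the first enzyme of the pathway, ranged from 0.204 to 0.345 FPKM in CPEB3+/- and from 0.00854 to 0.155 in CPEB3-/- embryos (-1.40, adjusted p = 0.00797). It reached the filter in all 5 CPEB3+/- and 1 of 4 CPEB3-/- libraries, so it was tested only through the genotype where it is high and its call is no support for a fall. Pigx, of the first mannosyltransferase, fell (-0.69, adjusted p = 0.048), and Pigq, a partner of Pigh, rose (0.81, adjusted p = 0.0285). The Pigx call was lost in 8 and the Pigq call in 5 of the 9 fits without 1 library (adjusted p up to 0.121 and 0.076). Pigx held only without CPEB3+/- library A, and Pigq was lost without CPEB3+/- library A or B or CPEB3-/- library A, C or D.

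Over the 19 libraries, the genes whose log2 level followed Efna1 most closely by Pearson's r were Isl2 (0.95), Rnf146 (0.904), Slc25a5 (0.902), Mterf3 (0.90) and Lrif1 (0.898). All 5 had their lowest mean in CPEB3-/- MII oocytes, Isl2 with 2.87, 0.893, 2.85 and 2.01 FPKM in CPEB3+/- MII, CPEB3-/- MII, CPEB3+/- 2cell and CPEB3-/- 2cell. The 19 points fall into 4 groups and share library and depth with every other gene, so r is a description only, and none of the 5 genes was among the 5 closest by Spearman's rho. Within groups, as deviations from the group means, the closest gene was Epha3 (r = 0.896), the highest value over 15786 genes. Epha3 was low, with means of 0.0892 and 0.0992 FPKM in CPEB3+/- and CPEB3-/- MII oocytes. In 2cell embryos its means were 0.0373 and 0.0444 FPKM, and 0 libraries there reached the filter of 0.1 FPKM. By level its r with Efna1 was -0.348. Epha3 was followed by Gm12355 (0.887), Anapc10 (0.869), Eif4a-ps4 (0.855) and Srsf3 (0.845), while Efna5 and Efnb2 moved opposite to Efna1 (r = -0.717 and -0.586). Efna5 held fewer than 3 fragments in 5 of 5 CPEB3+/- 2cell libraries. Among the ligands Efnb2 had the level pattern most like Efna1 (r = 0.672).

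Ephrins are also made by endothelium, and markers of other cells were summed beside them. The 7 endothelial markers found of 9 summed to 0.216 to 0.247 FPKM in CPEB3+/- and 0.309 to 0.558 in CPEB3-/- MII libraries. Their 2cell sums were 0.123 to 0.649 FPKM in CPEB3+/- and 0.376 to 2.88 in CPEB3-/-. Of the 7, 6 had the higher mean in CPEB3-/- MII libraries and 0 the lower. The endothelial cadherin gene Cdh5 was at 0 in all 10 MII libraries. Pecam1 (means of 0.127 and 0.194 FPKM in CPEB3+/- and CPEB3-/-) and Kdr (0.071 and 0.14) were above 0 in each of them. The 10 of 13 cumulus and granulosa markers found summed to 0.393 to 0.624 FPKM in CPEB3+/- and 0.365 to 0.586 in CPEB3-/- MII libraries, without any marker at a mean of 1 FPKM. In 2cell libraries they summed to 1.09 to 1.38 FPKM in CPEB3+/- and 0.561 to 0.955 in CPEB3-/-. Of the 10, 6 had the lower mean in CPEB3-/- 2cell libraries, led by Gja1 at 0.457 and 0.213 FPKM, and 4 had the higher one, among them Foxl2 at 0.0331 and 0.0911 FPKM. Gja1 was near 0 in MII libraries (means of 6.51e-04 and 9.91e-04 FPKM), and which cells made it in 2cell libraries was not tested. In MII libraries 2 of the 10 had the higher and 7 the lower mean in CPEB3-/-. Foxl2, a granulosa cell marker, was at 0 in all 10 MII libraries. Cyp19a1, of the same list, was above 0 in each of them, with means of 0.303 FPKM in CPEB3+/- and 0.334 in CPEB3-/-. Stromal markers (4 of 6 found) summed to 0.0532 to 0.127 FPKM in CPEB3+/- and 0 to 0.0761 in CPEB3-/- MII libraries. Their sums in 2cell libraries were 0.0227 to 0.0447 and 0.0472 to 0.0699 FPKM. Oviduct epithelium markers (2 of 4) summed to 0.00248 to 0.045 FPKM in CPEB3+/- and 0.013 to 0.102 in CPEB3-/- MII libraries. In 2cell libraries these were 0.0434 to 0.196 and 0.0115 to 0.0491 FPKM. Of 6 blood markers 2 were found, the alpha globins Hba-a1 and Hba-a2, at most 0.428 FPKM in MII and 46.2 to 146 FPKM in 2cell libraries of both genotypes. The part of any of these cell types in the ligand values was not tested.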

How the data were processed

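RNA of MII oocytes and 2cell embryos was measured in 19 libraries, grouped by their labels. Per the labels and the methods, the authors made Smart-seq libraries, trimmed reads with Trim Galore 0.4.1, mapped them to GRCm38 with HISAT2 2.0.5 and computed FPKM in SeqMonk. The annotation and strand setting are not given in the sources used here. The deposited table is named as raw counts, but 0.00203% of all its values are whole numbers above 0, and the deposited values were read as FPKM. Of low values of 9266 genes with 1 transcript, 43.6% lay within 0.05 of a whole fragment (10% by chance), which gave the depths. A test of counts was therefore not used. There were 0 columns of values not used.

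Each library was scaled by a trimmed mean of log ratios (30% of ratios and 5% of levels trimmed) and log2(FPKM + 0.1) was fitted in limma 3.58.1 (R 4.3.3) with a variance trend, separately in MII (10515 genes with 0.1 FPKM in 5 libraries) and 2cell (14051 genes, 4 libraries), and over all 19 libraries for stage and interaction (15786 genes). P values were adjusted by Benjamini-Hochberg over all genes tested. The fit was tested on simulated data with 200 genes changed by 2 on the log2 scale and recovered 95.5% in MII and 94.5% in 2cell, with 14 false calls in each. The changed genes were drawn only from those of higher mean level, with normally distributed noise. These rates therefore do not cover lower genes, such as most ligands, or smaller changes. For ligands under the filter the difference in mean FPKM was compared by an exact permutation test, two-sided. Alternatives were the values as deposited, scaling to summed FPKM, a pseudocount of 1, no filter or 1 FPKM, 1 fit of all libraries, the replicate letter as a block, removal of a loess trend on GC content (span 0.5) and leaving out each library.

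The members and gene lists were chosen with earlier results of these data known. Named were all ligands, receptors at 0.5 FPKM or called between genotypes, the genes of the lists called between genotypes in either stage, the 5 genes most like Efna1 by level and by deviation and neighbours within 100 kb at 0.5 FPKM. Genes of the lists called between stages or in the interaction are not named. Ephb3, Adam10, Slc50a1 and Dpm3 were named after their values were seen. Of 25891 genes 25640 matched GENCODE vM21, 97.8% with the same start. Tables were made in Python 3.11.15 with pandas 2.3.3, numpy 2.4.6 and, for rank correlations, scipy 1.17.1, and figures with matplotlib 3.10.9.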

Additional observations from a re-analysis of the deposited data

Results flagged for a closer look

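Single libraries stood apart from the others of their group in 6 of 44 groups of values examined (Dixon's test, 0.829 for 4 and 0.71 for 5 libraries), where chance gives about 1 in 20. Efna3 was 0.0835 FPKM in CPEB3+/- 2cell library A, against 0.0256 in the next. Efnb2 was 0.765 FPKM in CPEB3+/- MII library C, below the next at 0.847. Efnb3 was 0.00781 FPKM in CPEB3+/- MII library B and 0.0154 in CPEB3-/- MII library C, with 0 in the other libraries of both groups. Cpeb3 was 0.0566 FPKM in CPEB3+/- 2cell library D, above the next at 0.0265, and 0.0362 in CPEB3-/- 2cell library B, below the next at 0.0599. All but the Efnb2 value rest on few fragments.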

How the results depend on the processing

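The call of Efna4 in MII oocytes held in all 18 alternatives (log2 fold change -1.18 to -0.62, adjusted p 5.10e-04 to 0.0473), and its fall between the stages in all 24 for each genotype. For Efna1 in MII oocytes the difference was -1.74 with a pseudocount of 1, and 17 of 18 alternatives moved it by less than the spread between libraries. The stage difference of Efna1 in CPEB3+/- turned from 0.40 to -0.50 when libraries were scaled to summed FPKM. In 2cell embryos 16 of 17 alternatives left Efna1 uncalled.

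Counts of called genes depended on the settings. In MII oocytes 1356 genes were called, against 481 with a pseudocount of 1, 771 of 4435 with a filter of 1 FPKM, and 926 (without CPEB3+/- library C) to 1504 when 1 library was left out. In 2cell embryos 2533 were called, against 1155, 1530 of 5629, and 1804 to 2545. Stage calls numbered 10325 in CPEB3+/- (5176 with a pseudocount of 1, 10062 to 10294 without 1 library) and 10257 in CPEB3-/- (5366, and 9864 to 10224), and interaction calls 1247 (929 to 1561). Scaled to summed FPKM, the share of higher calls in 2cell embryos went from 52.5% to 80.9%, for the stage from 66.4% to 45.6% and from 67.2% to 48.8%, and for the interaction from 48.1% to 65.8%.

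The replicate letters did not pair the samples: libraries of 1 letter deviated together with correlations of -0.176 to 0.12 in MII and -0.0688 to 0.0366 in 2cell, and 1 of 5 and 1 of 4 letters correlated best with its own. With the letter as a block, calls fell to 830 in MII oocytes and 393 in 2cell embryos, Efna4 stayed called in MII oocytes (adjusted p = 0.0473) and Ephb6 did not (adjusted p = 0.0693). At 9.67 to 33.8 fragments per library, depth limits the precision of Efna1 in CPEB3-/- MII oocytes.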
